A study of Mus musculus with 4 samples.

Results

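The solute carriers described here were 165 protein-coding genes, out of 392 whose mouse symbol begins with Slc or Slco in a table of 37681 gene rows. They were selected on their measured level, at least 5 CPM (gene reads scaled to a common library total) in 1 or more of the 4 libraries, which 10029 genes of all kinds reached. The rule leaves out 13 Slc or Slco genes, and 214 stayed under 5 CPM in every library, 87 of them with 0 counts throughout. The highest CPM was 5.02 for Slc12a5, 5.13 for Slc25a42 and 6.08 for Slc13a2, the members just inside the threshold, and 4.82 for Slc39a2, 4.71 for Slc27a3 and 4.33 for Slc2a4rg-ps, the genes just outside it. Of the members, 147 reached 5 CPM in all 4 libraries and 6 in only 1, namely Slc12a5, Slc13a2, Slc24a3, Slc25a42, Slc6a4 and Slco2b1. Another 6 reached it in only 2. These were the libraries with shRNA for Slc43a3 and those without it for Slc25a29, Slc4a8 and Slc9a4. They were the stimulated libraries for Slc28a2 and the unstimulated ones for Slc26a11. A large difference in some members of both kinds was built into the choice. Slc4a1ap, Slc7a6os and Slc9a3r1 carry the prefix but encode no transporter, and were kept as the rule has them.

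Transcripts were measured by mRNA sequencing in bone marrow cells from wild-type C57BL/6 mice, kept in DMEM with fetal bovine serum plus supernatant of L929 cells, which secrete M-CSF. The 4 groups were cells with shRNA against lncRNA-COX2 given 100 nM Pam3Cys4 for 5 h, cells with that shRNA left unstimulated, cells without shRNA given Pam3Cys4, and cells without shRNA left unstimulated. Pam3Cys4 is a synthetic lipopeptide that TLR2 and TLR1 detect as a pair. The design asks how transcripts respond to it with and without the shRNA. Each group was 1 library, so no test between single libraries was possible, and both libraries without shRNA have EV in their titles, unexplained in the labels.

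Gene reads per library ran from 47385277 to 65826838, and the members held 1.68 to 1.78% of them. All 8 macrophage markers examined reached 5 CPM in at least 1 library, with a summed level of 8107 and 6519 scaled CPM with shRNA (Pam3Cys4, unstimulated), against 8411 and 5800 without it. The markers did not move together: Mertk had 8.02 and 38.8 scaled CPM with shRNA, against 1.09 and 4.91 without it, and Fcgr1 357 and 163, against 86.7 and 112, while Adgre1 had 401 and 192 with shRNA, against 663 and 349 without it, and Itgam 479 and 422, against 969 and 455. None of the neutrophil, B cell, T or NK cell, mast cell, fibroblast or erythroid markers reached 5 CPM, and Ly6g, Elane, Cd3e and Col1a2 were at 0 in every library. The 5 dendritic cell markers summed to 2.42 and 0.781 scaled CPM with shRNA, against 22.7 and 18.1 without it. Dcstamp made up 0.747 and 0.450 of these with shRNA, against 20.9 and 15.8 without it. The 4 osteoclast markers summed to 67.1 and 62.1 with shRNA, against 13.3 and 10.6 without it, nearly all from Ctsk, and the 3 endothelial markers to 17.1 and 11, against 6.89 and 6.10, mainly from Kdr. The Y-linked gene Ddx3y had 1116 and 921 counts with shRNA, against 4 and 3 without it, and Kdm5d had 665 and 730, against 1 and 0. The shRNA state therefore went together with Y-linked reads, and a difference between shRNA states cannot be told apart from a difference between the animals the cells came from. The part of these marker and Y-linked differences in the results below was not tested.

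Solute carriers are membrane proteins that move amino acids, sugars, nucleotides, vitamins, metals and ions across the plasma membrane and the membranes of lysosomes, Golgi and mitochondria, most of them by coupling 1 solute to the gradient of another or by facilitating its diffusion. In macrophages they supply nutrients for activation, withhold metals from microbes and set the contents of the phagosome and lysosome. Families are numbered by sequence, so members of a family often, but not always, carry related solutes.

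Promoter windows of 300 bases, from 250 before to 50 after a transcription start, were read from RefSeq on GRCm38.p6 for 129 of the 165 members, using the start of each gene that lies farthest 5′ in that table. They were searched on both strands for the letters GGANNTTCC (kappaB core), GAAANNGAA (interferon-stimulated response element), TGANTCA (AP-1), TGATGNAA (CARE) and TGCACNC (metal response element core), where N is any base and different motifs were allowed to overlap. Of 27025 genes in the table, 4.24, 8.58, 7.92, 4.06 and 12.4% held these letters in that order, and of the members 3.88, 5.43, 9.30, 2.33 and 16.3%. The windows below belong to the 3 members called higher with shRNA in both stimulation states whose window held any of the letters, out of 6 matched, and were picked after the matches were seen. Capitals mark the matched letters: the interferon-stimulated response element in Slc37a1, AP-1 in Slc37a2, and the kappaB core followed by AP-1 in Slc6a12.
Slc37a1 (chr17:31295974-31296273, + strand): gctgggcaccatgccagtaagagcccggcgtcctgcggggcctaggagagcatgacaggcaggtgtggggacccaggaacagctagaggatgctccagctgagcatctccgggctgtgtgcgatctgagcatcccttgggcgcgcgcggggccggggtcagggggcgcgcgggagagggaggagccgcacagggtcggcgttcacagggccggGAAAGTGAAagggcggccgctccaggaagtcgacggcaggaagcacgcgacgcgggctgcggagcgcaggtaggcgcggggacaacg
Slc37a2 (chr9:37255689-37255988, - strand): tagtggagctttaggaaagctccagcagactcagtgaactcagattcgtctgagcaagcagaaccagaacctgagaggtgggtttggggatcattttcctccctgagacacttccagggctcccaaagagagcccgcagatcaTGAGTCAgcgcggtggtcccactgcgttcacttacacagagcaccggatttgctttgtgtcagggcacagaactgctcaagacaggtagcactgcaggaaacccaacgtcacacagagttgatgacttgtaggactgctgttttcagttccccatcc
Slc6a12 (chr6:121342324-121342623, + strand): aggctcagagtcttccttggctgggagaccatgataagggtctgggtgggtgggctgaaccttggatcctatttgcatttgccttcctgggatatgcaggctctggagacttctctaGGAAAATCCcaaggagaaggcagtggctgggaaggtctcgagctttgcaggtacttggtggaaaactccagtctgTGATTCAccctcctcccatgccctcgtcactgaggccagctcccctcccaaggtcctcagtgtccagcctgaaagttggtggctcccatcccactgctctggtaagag
The first matched base lay 37 bases before the start in Slc37a1, 107 in Slc37a2, and 133 and 58 in Slc6a12. Of the 7 members called higher after Pam3Cys4 in both shRNA states, 4 were matched, and none of these windows held the kappaB, interferon, AP-1 or CARE letters, while Slc31a2 held the metal response element core. Counting every start in the table instead, which was the first search made, 9.76% of all genes and 9.30% of members held the interferon letters, and Slc6a13 then held the kappaB core and Slc6a12 the interferon letters. A match describes letters only, and no match says nothing about binding.

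Levels are given as scaled CPM, the CPM of a library after edgeR TMM scaling, and compared between genes only per kilobase of exon. A ratio between libraries carries in parentheses a 95% interval that covers counting error only, and a gene was called when it reached 2-fold with an interval that left out 1 and at least 5 scaled CPM in the higher library. Rose and fell are used only for members that passed an additive edgeR quasi-likelihood test over all 4 libraries with Benjamini-Hochberg adjusted p under 0.05, in which the states of the other factor served as repeats. Where libraries of different states are said to lay apart or not to overlap, this describes levels only. Most such members were named for their ratios, which favours it, and the share over all genes is not given. Per kilobase, Slc25a5, an ADP/ATP carrier, had the highest median over libraries, followed by Slc7a5, the large neutral amino acid transporter LAT1, Slc15a3, Slc6a6, Slc25a4 and Slc27a1. Slc25a5 had 196 and 174 scaled CPM per kilobase with shRNA (Pam3Cys4, unstimulated), against 212 and 171 without it. Slc15a3, a lysosomal peptide and histidine transporter, had 265 and 72.3 with shRNA, against 328 and 29.5 without it, which placed it at rank 1 of the members in both stimulated libraries and at ranks 16 and 31 in the unstimulated ones with and without shRNA. Over all members and libraries the median was 8.32 scaled CPM per kilobase.

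After Pam3Cys4, 7 members were called higher in both shRNA states, carrying peptides (Slc15a3), copper (Slc31a2), zinc (Slc39a4), phosphate (Slc20a1), bicarbonate (Slc4a7), nucleosides (Slc28a2) and mitochondrial iron (Slc25a37). Another 9 were called lower in both, among them the inositol, thiamine, sialic acid and glucose 6-phosphate transporters Slc5a3, Slc19a2, Slc17a5 and Slc37a2. In bulk RNA, fewer cells with a transcript and less transcript per cell cannot be told apart. With shRNA, 9 of 157 members measured were called higher and 11 lower, where 6.3% and 3.53% of 9601 genes were. Scaled by library totals alone, that split was 6 higher and 14 lower, with no share over all genes given at that scaling. Without shRNA, 11 of 161 were called higher and 15 lower, against 7.07% and 6.51% of 9555 genes. The members' shares, 5.73% and 7.01% with shRNA and 6.83% and 9.32% without, lay near the background for higher calls; for lower calls they were above it, with no test of the difference. Without the members that reached 5 CPM in only 1 library, Slc6a4, Slc24a3 and Slco2b1 among those called, 6.33% were higher and 8.23% lower without shRNA. The background over all genes keeps such genes. With at least 20 scaled CPM in the higher library, 7 were higher and 7 lower with shRNA and 9 were higher and 9 lower without it, an even split. The share of all genes at that filter is not given. Their median log2 ratio was -0.003 with shRNA and -0.043 without, beside 0.016 and -0.001 over all genes measured.

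In the additive test 19 of 159 members rose with Pam3Cys4 and 28 fell, against 11.9% and 10.9% of 9559 genes. The members' shares were 11.9% and 17.6%. Library totals alone gave 18 and 43 members, with no share over all genes given at that scaling. Slc28a2 entered the test only through the stimulated libraries and Slc26a11 only through the unstimulated ones, so their selection favoured a difference. The Pam3Cys4 ratios in the 2 shRNA states share no library. Over 155 members measured in both, Pearson's r of the log2 ratios was 0.868 and Spearman's rho 0.808, close to 0.865 and 0.791 over 9142 genes, as a description. The 7 members higher in both states made up 77.8% of the 9 called with shRNA and 70.0% of the 10 called without it among members measured in both states. The 9 lower made up 81.8% of 11 and 69.2% of 13. No member was called in opposite directions. The overlap of calls is not given over all genes, so these shares are not read as a trait of the members.

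**Figure D1:**
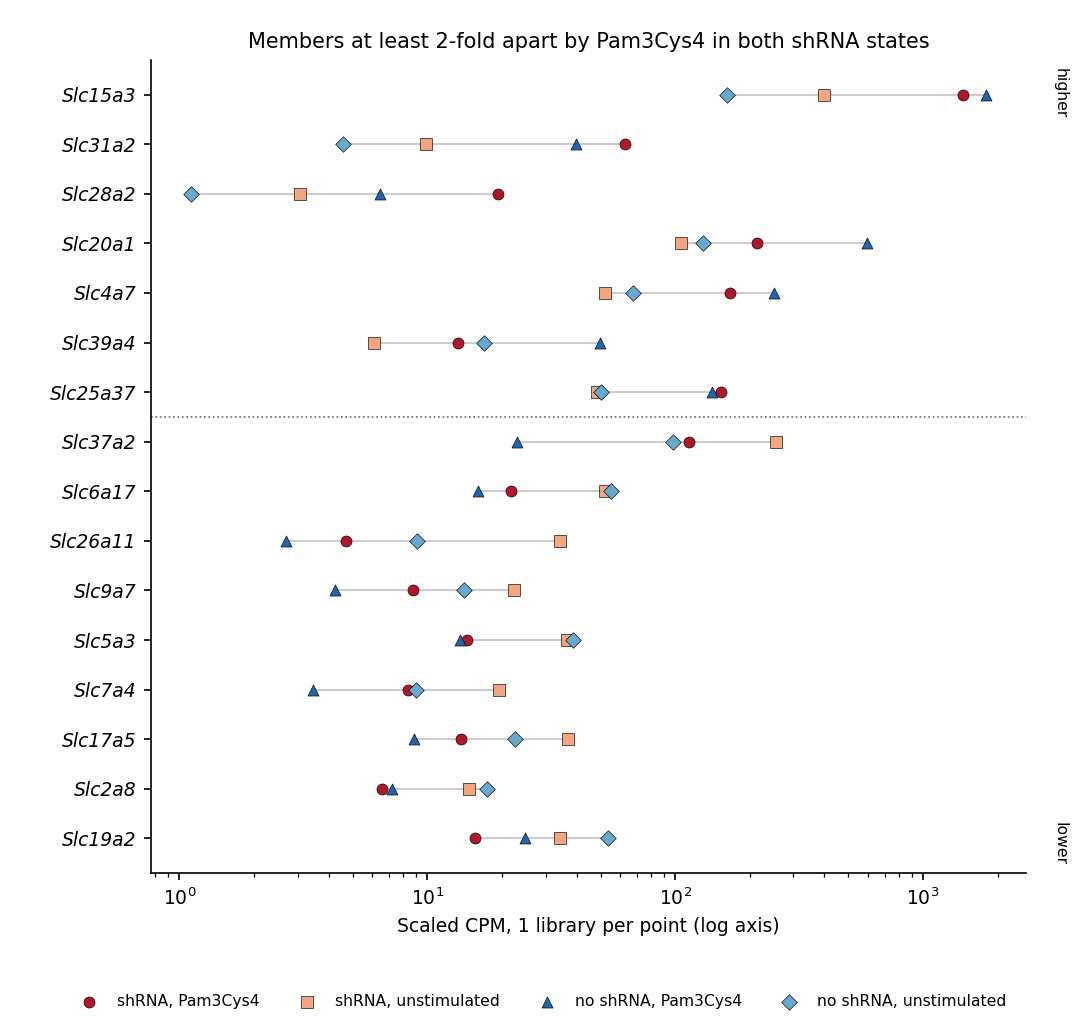
Levels of the 16 members called at least 2-fold apart by Pam3Cys4 in both shRNA states, in scaled CPM on a log axis, with 1 point per library. The dotted line parts the 7 higher members from the 9 lower ones, and Slc15a3 reaches 1454 scaled CPM with shRNA and 1798 without it after Pam3Cys4.

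**Figure D2:**
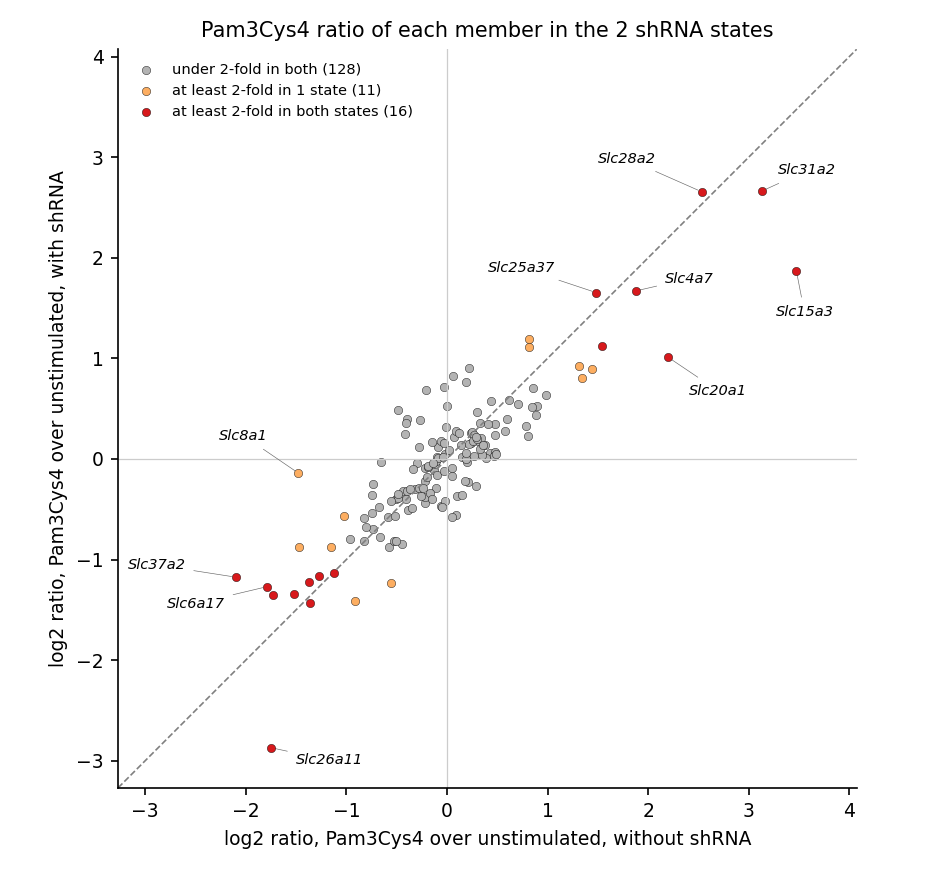
Log2 ratio of Pam3Cys4 over unstimulated with shRNA (vertical axis) and without shRNA (horizontal axis) for 155 members, 1 point per member, coloured by the number of states in which it was called. The dashed line marks equal ratios. Slc15a3 and Slc20a1 lie below it on the higher side and Slc8a1 above it on the lower side.

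With shRNA, after Pam3Cys4 as well as in unstimulated cells, 9 members were called higher: the creatine, betaine and GABA transporters Slc6a8, Slc6a12 and Slc6a13, the sugar phosphate exchangers Slc37a1 and Slc37a2, and Slc43a3, Slc7a4, Slc29a3 and Slc46a1. Another 10 were called lower in both states, among them 3 zinc importers (Slc39a4, Slc39a10 and Slc39a14), the mitochondrial carriers Slc25a29 and Slc25a33 and 2 sodium-proton exchangers (Slc9a4 and Slc9a9). After Pam3Cys4, 21 of 159 members were higher with shRNA and 18 lower, against 9.0% and 5.58% of 9702 genes. In unstimulated cells 15 of 161 were higher and 12 lower, against 7.0% and 4.82% of 9651 genes. The members' shares were 13.2% and 11.3% after Pam3Cys4 and 9.32% and 7.45% unstimulated. They were above the background in each case, with no test of that difference. Without the members that reached 5 CPM in only 1 library the shares were 13.3% and 10.8%, and 8.86% and 6.33%. The background keeps such genes, and the members at 5 CPM in 2 libraries stay in these shares. With at least 20 scaled CPM in the higher library, 11 were higher and 6 lower in unstimulated cells, with no share of all genes given at that filter. Their median log2 ratio was -0.069 after Pam3Cys4 and -0.036 unstimulated, beside 0.049 and 0.024 over all genes measured.

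In the additive test 28 of 159 members rose with shRNA and 23 fell, against 12.3% and 8.66% of 9559 genes. The members' shares were 17.6% and 14.5%. Slc43a3, Slc9a4, Slc4a8 and Slc25a29 entered the test only through the libraries of the shRNA state where they were high. Their selection thus favoured a difference. The shRNA ratios in the 2 stimulation states share no library either, and over 157 members r was 0.925 and rho 0.818, beside 0.929 and 0.762 over 9339 genes. The 9 members higher in both states were 45% of those called after Pam3Cys4 and 69.2% of those called unstimulated, among members measured in both. The 10 lower ones were 58.8% and 100.0%. The overlap over all genes is not given here either.

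**Figure D3:**
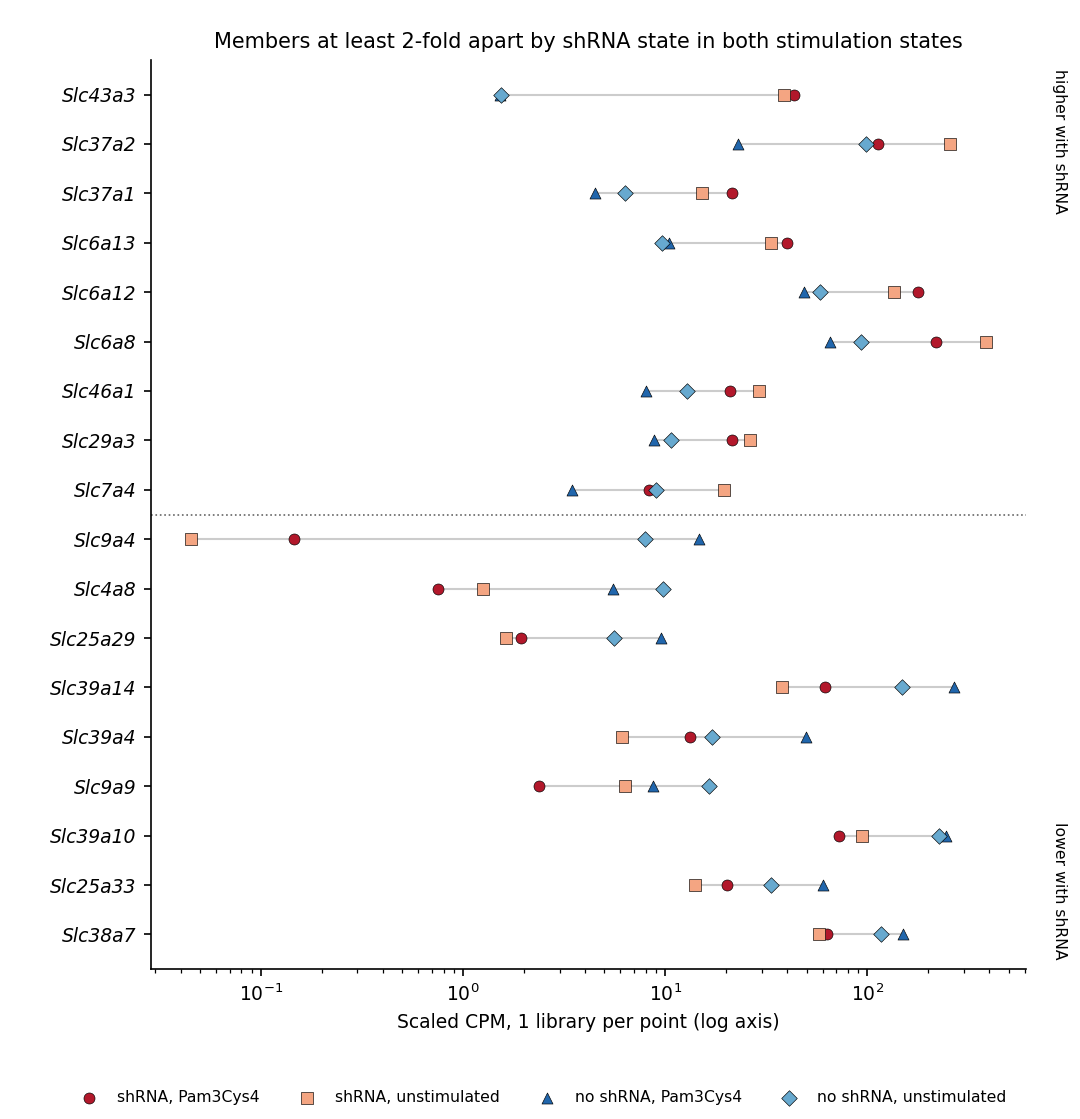
Levels of 18 of the 19 members called at least 2-fold apart by shRNA state in both stimulation states, in scaled CPM on a log axis, with 1 point per library. The dotted line parts the 9 members higher with shRNA from the 9 lower ones shown, and Slc43a3 and Slc9a4 show the widest gaps between shRNA states.

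**Figure D4:**
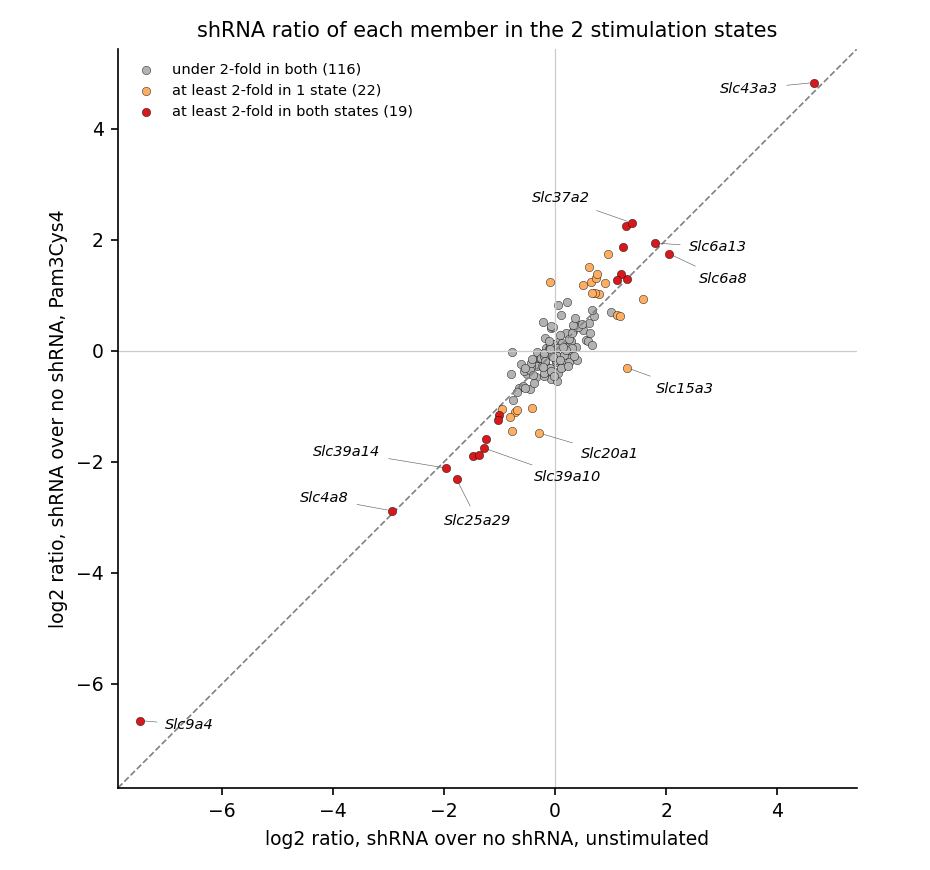
Log2 ratio of shRNA over no shRNA after Pam3Cys4 (vertical axis) and in unstimulated cells (horizontal axis) for 157 members, 1 point per member, coloured by the number of states in which it was called. The dashed line marks equal ratios. Slc15a3 and Slc20a1 lie below it.

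The roles below follow the family numbers, with 33 mitochondrial carriers, 24 members of amino acid families, 19 of the nucleotide sugar family and 17 zinc transporters as the 4 largest groups. Some genes left out by the rule belong to these and other families described below, so a role is not always complete. Counts of members that rose or fell in a role stand beside 11.9% and 10.9% of all genes tested with Pam3Cys4 and 12.3% and 8.66% with shRNA, and in groups this small a count near those shares is no result about the role.

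**Figure D5:**
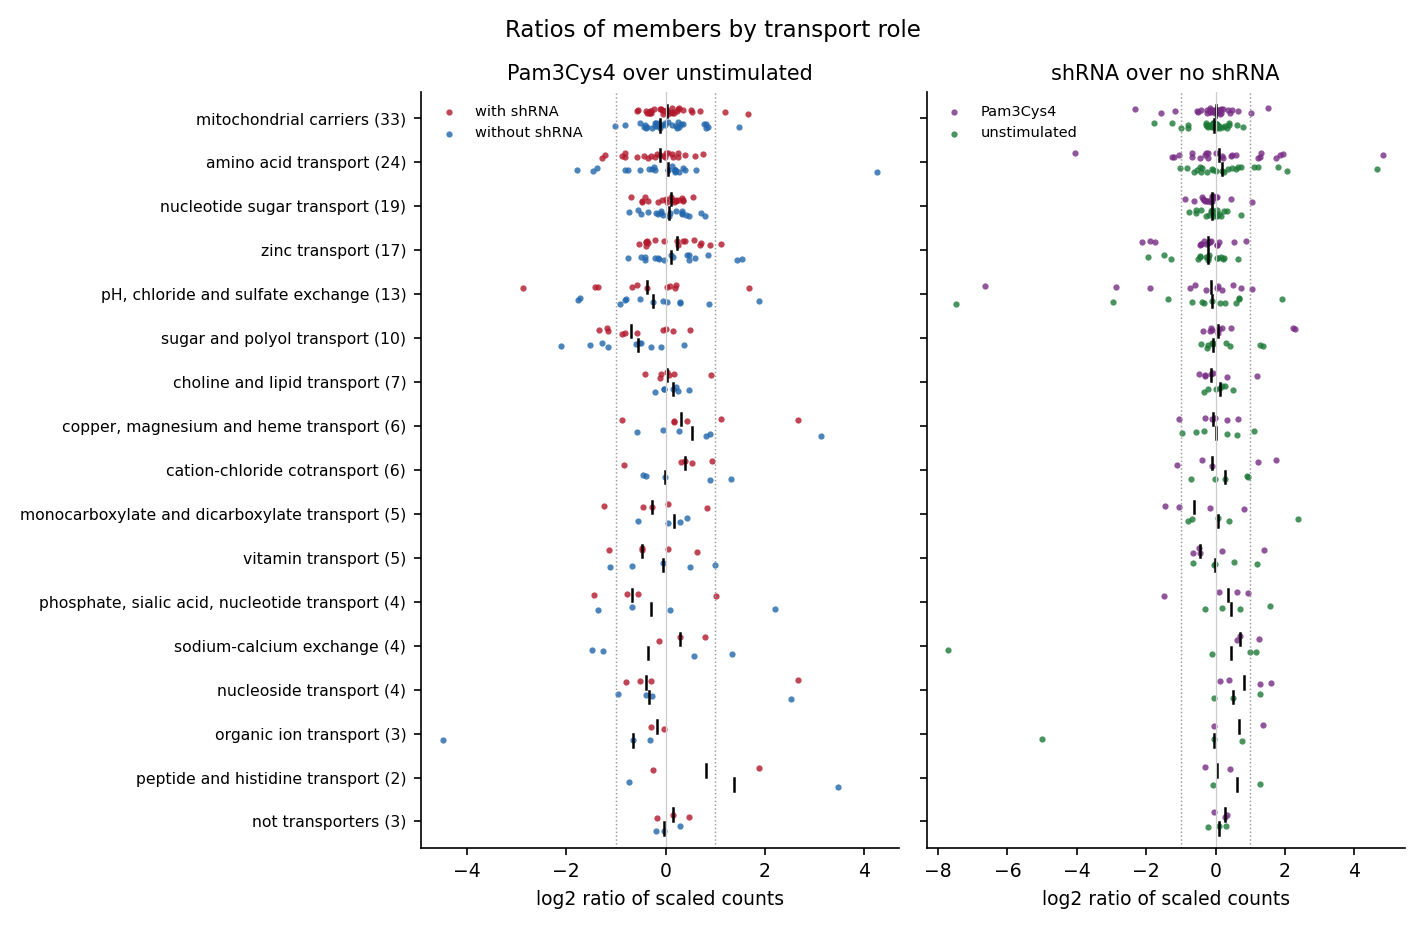
Log2 ratios of the members measured, grouped by transport role with the number of members in parentheses, for Pam3Cys4 over unstimulated (left, with and without shRNA) and shRNA over no shRNA (right, after Pam3Cys4 and unstimulated). Each point is 1 member, black ticks mark medians and dotted lines mark 2-fold. The sugar and polyol group has its Pam3Cys4 medians at -0.69 with shRNA and -0.56 without, and Slc24a3, at 0 counts with shRNA, is drawn at its floor of 3 counts.

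Peptide and histidine transport was covered by Slc15a3 and Slc15a4, proton-coupled transporters of endosomes and lysosomes that carry histidine and bacterial peptides to the cytosol. Slc15a3 had 1454 scaled CPM after Pam3Cys4 against 397 unstimulated with shRNA, and 1798 against 162 without shRNA. It was higher after Pam3Cys4 by 3.66-fold (3.61 to 3.71) with shRNA and 11.1-fold (10.9 to 11.4) without it, and rose in the additive test (log2 difference 2.67 ± 0.42 SE, edgeR adjusted p = 0.018). The stimulated libraries were the 2 highest for this gene. In unstimulated cells it was 2.45-fold (2.39 to 2.51) higher with shRNA, whereas after Pam3Cys4 it was 1.24-fold (1.22 to 1.248) lower, under the threshold. Slc15a4, which is needed for signalling by endosomal Toll-like receptors, had 67.3 scaled CPM after Pam3Cys4 against 79.8 unstimulated with shRNA, and 50.9 against 84.4 without shRNA, and was called in no pair.

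Transcripts of the copper transporters rose with Pam3Cys4. Slc31a2, a copper transporter of intracellular membranes, had 62.5 scaled CPM after Pam3Cys4 against 9.88 unstimulated with shRNA, and 39.9 against 4.57 without shRNA. Its increase was 6.33-fold (5.82 to 6.89) with shRNA and 8.74-fold (7.64 to 10.04) without it (log2 difference 2.89 ± 0.18 SE, edgeR adjusted p = 0.0036), and no stimulated library overlapped an unstimulated one. In unstimulated cells it was also 2.16-fold (1.86 to 2.52) higher with shRNA, a ratio of 1.99 under library totals. Slc31a1, the high-affinity copper importer of the plasma membrane, had 285 scaled CPM after Pam3Cys4 against 131 unstimulated with shRNA, and 289 against 164 without shRNA, and rose as well (log2 difference 0.97 ± 0.13 SE, edgeR adjusted p = 0.014). It passed 2-fold with shRNA, at 2.17-fold (2.11 to 2.22), where library totals gave 1.98, and stood at 1.76-fold without it. Slc48a1, which returns heme from the phagolysosome to the cytosol, had 94.4 scaled CPM with shRNA against 195 without it after Pam3Cys4, and 83.3 against 163 in unstimulated cells. It fell with shRNA (log2 difference -1.01 ± 0.11 SE, edgeR adjusted p = 0.0061) and was called lower after Pam3Cys4, by 2.06-fold (1.996 to 2.14). Of the 3 magnesium transporters of family 41, Slc41a2 rose and Slc41a3 fell with Pam3Cys4, and Slc41a1 passed neither test.

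Zinc transporters comprised 6 exporters of family 30 and 11 importers of family 39, which move zinc out of and into the cytosol. Among the 17, 3 rose and 1 fell with Pam3Cys4, and none rose and 4 fell with shRNA. Slc39a14, which imports zinc, manganese and iron not bound to transferrin, had 61.8 scaled CPM with shRNA against 268 without it after Pam3Cys4, and 38 against 148 in unstimulated cells. It was lower with shRNA by 4.33-fold (4.17 to 4.50) after Pam3Cys4 and 3.88-fold (3.71 to 4.06) unstimulated (log2 difference -2.04 ± 0.12 SE, edgeR adjusted p = 0.001), and both libraries with shRNA lay below both without it. It also rose with Pam3Cys4 (log2 difference 0.78 ± 0.12 SE, edgeR adjusted p = 0.017), under 2-fold in each state. Slc39a4, known as the zinc importer of the intestine, had 13.3 scaled CPM after Pam3Cys4 against 6.11 unstimulated with shRNA, and 49.6 against 17 without shRNA. After Pam3Cys4 it was higher by 2.17-fold (1.92 to 2.46) with shRNA, where library totals gave 1.98, and by 2.92-fold (2.70 to 3.15) without it, while with shRNA it was lower by 3.74-fold (3.44 to 4.07) after Pam3Cys4 and 2.78-fold (2.47 to 3.14) unstimulated. This made it 1 of 3 members called in all 4 pairs, with Slc37a2 and Slc7a4.

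Slc39a10, a zinc importer of the plasma membrane, had 72.4 scaled CPM with shRNA against 244 without it after Pam3Cys4, and 93.6 against 227 in unstimulated cells. The decrease with shRNA was 3.37-fold (3.25 to 3.49) after Pam3Cys4 and 2.43-fold (2.35 to 2.50) unstimulated (log2 difference -1.52 ± 0.16 SE, edgeR adjusted p = 0.0048), and the groups did not overlap. Slc39a1, a widely expressed zinc importer, had 92.5 scaled CPM after Pam3Cys4 against 49.9 unstimulated with shRNA, and 85.8 against 31.6 without shRNA, and rose with Pam3Cys4 (log2 difference 1.17 ± 0.18 SE, edgeR adjusted p = 0.017). Slc39a8, which imports zinc and manganese and fell with Pam3Cys4 (log2 difference -0.64 ± 0.15 SE, edgeR adjusted p = 0.043), had 11.3 scaled CPM after Pam3Cys4 against 16.4 unstimulated with shRNA, and 13.2 against 22.3 without shRNA. Slc30a1, the zinc exporter of the plasma membrane, had 23.4 scaled CPM with shRNA against 12.7 without it after Pam3Cys4, and 19.7 against 17 in unstimulated cells, and did not pass either test.

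Of the zinc-responsive genes listed beside the members, the metallothioneins Mt1 and Mt2 bind cytosolic zinc and Mtf1 is the transcription factor that senses it. Mt1 had 629.6 scaled CPM with shRNA against 1515 without it after Pam3Cys4, and 902 against 1294 in unstimulated cells. Mt2 had 67.5 against 221 after Pam3Cys4, and 90.6 against 144 unstimulated. Both were thus called lower with shRNA after Pam3Cys4, by 2.41-fold and 3.27-fold, and neither in unstimulated cells, while Mtf1 was within 1.07-fold between shRNA states. Of all genes measured, 5.58% were called lower with shRNA after Pam3Cys4. The list held 4 genes, of which 3 were measured. In the additive test none of these rose and 2 fell with shRNA, beside 12.3% and 8.66% of all genes. Nothing particular to the list is read from so few genes.

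Phosphate uptake and lysosomal or vesicular anion transport were covered by 4 members. Slc20a1, a sodium-phosphate cotransporter, had 213 scaled CPM after Pam3Cys4 against 106 unstimulated with shRNA, and 595 against 129.7 without shRNA. It was higher after Pam3Cys4 by 2.02-fold (1.958 to 2.08) with shRNA, or 1.84 under library totals, and by 4.59-fold (4.47 to 4.71) without it (log2 difference 1.61 ± 0.30 SE, edgeR adjusted p = 0.028). The stimulated library without shRNA stood above the other 3, and after Pam3Cys4 the gene was 2.79-fold (2.73 to 2.85) lower with shRNA. Slc17a5, the lysosomal sialic acid exporter sialin, had 13.7 scaled CPM after Pam3Cys4 against 36.9 unstimulated with shRNA, and 8.81 against 22.6 without shRNA. It was lower after Pam3Cys4 by 2.70-fold (2.49 to 2.93) with shRNA and 2.56-fold (2.30 to 2.87) without it (log2 difference -1.40 ± 0.14 SE, edgeR adjusted p = 0.0075). Slc17a9, which loads ATP into secretory vesicles, had 20.2 scaled CPM with shRNA against 10.6 without it after Pam3Cys4, and 29.7 against 9.92 in unstimulated cells, and rose with shRNA (log2 difference 1.26 ± 0.21 SE, edgeR adjusted p = 0.018). Slc20a2, the second sodium-phosphate cotransporter, fell with Pam3Cys4 (log2 difference -0.72 ± 0.12 SE, edgeR adjusted p = 0.022).

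Among 4 nucleoside transporters, Slc28a2 takes up purine nucleosides with sodium and the 3 members of family 29 equilibrate them across membranes. Slc28a2 had 19.3 scaled CPM after Pam3Cys4 against 3.06 unstimulated with shRNA, and 6.43 against 1.11 without shRNA. The increase after Pam3Cys4 was 6.31-fold (5.42 to 7.36) with shRNA and 5.78-fold (4.36 to 7.78) without it (log2 difference 2.60 ± 0.18 SE, edgeR adjusted p = 0.0043), from 204 and 58 counts in the unstimulated libraries. Slc28a2 reached 5 CPM only in the stimulated libraries, so its selection favoured this increase and the p-value is no independent support for it. It was also higher with shRNA after Pam3Cys4, by 3.002-fold (2.65 to 3.41). Slc29a3, the lysosomal nucleoside exporter, had 21.4 scaled CPM with shRNA against 8.79 without it after Pam3Cys4, and 26.1 against 10.7 in unstimulated cells. Its increase with shRNA was 2.44-fold (2.18 to 2.72) after Pam3Cys4 and 2.45-fold (2.22 to 2.70) unstimulated (log2 difference 1.29 ± 0.14 SE, edgeR adjusted p = 0.0058), and both libraries with shRNA lay above both without it. Slc29a2 fell with Pam3Cys4 (log2 difference -0.88 ± 0.13 SE, edgeR adjusted p = 0.017).

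Of 23 members of amino acid families tested, 7 rose and 4 fell with shRNA, and 1 rose and 5 fell with Pam3Cys4. Slc6a8, the creatine transporter, had 219.5 scaled CPM with shRNA against 65.5 without it after Pam3Cys4, and 387 against 93.2 in unstimulated cells. It was higher with shRNA by 3.35-fold (3.22 to 3.48) after Pam3Cys4 and 4.16-fold (4.03 to 4.29) unstimulated (log2 difference 1.90 ± 0.14 SE, edgeR adjusted p = 0.0016), and fell with Pam3Cys4 (log2 difference -0.66 ± 0.13 SE, edgeR adjusted p = 0.03). Slc6a12, the betaine and GABA transporter whose promoter window is printed above, had 178 scaled CPM with shRNA against 48.6 without it after Pam3Cys4, and 136 against 58.4 in unstimulated cells, ratios of 3.66-fold (3.50 to 3.83) and 2.33-fold (2.23 to 2.43). Its neighbour in the family Slc6a13, a GABA transporter, had 40.1 scaled CPM with shRNA against 10.5 without it after Pam3Cys4, and 33.5 against 9.61 in unstimulated cells, ratios of 3.84-fold (3.49 to 4.23) and 3.49-fold (3.16 to 3.85). For all 3 genes the 2 libraries with shRNA were above the 2 without it. Slc43a3, an orphan of an amino acid family described as a purine nucleobase transporter in human cells, had 2378 and 2591 counts with shRNA (Pam3Cys4, unstimulated), against 77 and 80 without it. Its increase with shRNA was the largest of the members, 28.4-fold (22.6 to 36.1) after Pam3Cys4 and 25.3-fold (20.3 to 32.1) unstimulated (log2 difference 4.74 ± 0.17 SE, edgeR adjusted p = 0.00046), and within an shRNA state the libraries differed by under 1.2-fold. Slc43a3 reached 5 CPM only with shRNA, so its place among the members rests on the libraries where it was high.

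Transporters of large neutral amino acids moved in different directions with shRNA. Slc7a8, the light chain LAT2, had 1124 scaled CPM with shRNA against 454 without it after Pam3Cys4, and 663 against 397 in unstimulated cells, and rose with shRNA (log2 difference 1.02 ± 0.18 SE, edgeR adjusted p = 0.021). Slc43a2, the facilitative carrier LAT4, had 328 and 602 scaled CPM with shRNA (Pam3Cys4, unstimulated), against 139.6 and 386 without shRNA. It rose with shRNA (log2 difference 0.94 ± 0.18 SE, edgeR adjusted p = 0.027) and fell with Pam3Cys4 (log2 difference -1.17 ± 0.18 SE, edgeR adjusted p = 0.017), by 2.77-fold (2.69 to 2.84) without shRNA. Slc7a5, the light chain LAT1, had 528 scaled CPM with shRNA against 839 without it after Pam3Cys4, and 507 against 738 in unstimulated cells, and fell with shRNA (log2 difference -0.61 ± 0.12 SE, edgeR adjusted p = 0.028) while staying under 2-fold in each pair. Slc3a2, the heavy chain that LAT1 and LAT2 share, had 522 scaled CPM after Pam3Cys4 against 347 unstimulated with shRNA, and 449 against 293 without shRNA, and was the only amino acid member to rise with Pam3Cys4 (log2 difference 0.60 ± 0.11 SE, edgeR adjusted p = 0.027). LAT1 and its heavy chain thus passed different tests.

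Of the glutamine and small neutral amino acid carriers, Slc38a7, Slc38a1 and Slc1a4 fell with shRNA. Slc38a7, which exports glutamine from lysosomes, had 63.4 scaled CPM with shRNA against 149.7 without it after Pam3Cys4, and 57.5 against 117 in unstimulated cells. The decrease was 2.36-fold (2.27 to 2.46) after Pam3Cys4 and 2.03-fold (1.95 to 2.11) unstimulated (log2 difference -1.13 ± 0.13 SE, edgeR adjusted p = 0.006), without overlap between the groups. Slc38a2, the sodium-coupled transporter SNAT2, had 466 scaled CPM with shRNA against 958 without it after Pam3Cys4, and 697 against 925 in unstimulated cells, and was lower with shRNA after Pam3Cys4 by 2.05-fold (2.02 to 2.09) but did not pass the additive test (log2 difference -0.72 ± 0.19 SE, edgeR adjusted p = 0.057). Its relative Slc38a1 had 232 scaled CPM with shRNA against 375 without it after Pam3Cys4, and 237 against 327 in unstimulated cells, and fell with shRNA (log2 difference -0.58 ± 0.12 SE, edgeR adjusted p = 0.036). The related exchangers of family 1 differed: Slc1a4 fell with shRNA (log2 difference -1.01 ± 0.16 SE, edgeR adjusted p = 0.016), and Slc1a5, the glutamine exchanger ASCT2, had 303 scaled CPM with shRNA against 349 without it after Pam3Cys4, and 410.3 against 407 in unstimulated cells and passed neither test. Slc36a1, a proton-coupled amino acid transporter of lysosomes, had 23.3 scaled CPM after Pam3Cys4 against 29.9 unstimulated with shRNA, and 27.4 against 45.9 without shRNA, and Slc38a9, the lysosomal arginine sensor of mTORC1, had 9.76 scaled CPM after Pam3Cys4 against 9.79 unstimulated with shRNA, and 9.70 against 8.52 without shRNA. Neither passed a test.

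Lower after Pam3Cys4 in this group were Slc6a17, Slc7a4 and the taurine transporter Slc6a6. Slc6a17, known as a vesicular amino acid transporter of neurons, had 21.7 scaled CPM after Pam3Cys4 against 52.3 unstimulated with shRNA, and 16 against 55.2 without shRNA. The decrease was 2.41-fold (2.26 to 2.58) with shRNA and 3.46-fold (3.20 to 3.74) without it (log2 difference -1.53 ± 0.17 SE, edgeR adjusted p = 0.01). Slc7a4, a relative of the cationic amino acid transporters with no established substrate, had 8.34 scaled CPM after Pam3Cys4 against 19.5 unstimulated with shRNA, and 3.46 against 8.98 without shRNA. It was called in all 4 pairs, lower after Pam3Cys4 by 2.34-fold (2.10 to 2.61) and 2.59-fold (2.17 to 3.10) and higher with shRNA by 2.41-fold (2.02 to 2.88) after Pam3Cys4 and 2.17-fold (1.955 to 2.42) unstimulated. Slc6a6 had 1197 scaled CPM after Pam3Cys4 against 2109 unstimulated with shRNA, and 858 against 1518 without shRNA, and fell by 1.76-fold with shRNA and 1.77-fold without it (log2 difference -0.82 ± 0.12 SE, edgeR adjusted p = 0.016), under the 2-fold threshold. Slc6a4, the serotonin transporter, had 23 and 3 counts with shRNA (Pam3Cys4, unstimulated), against 353 and 19 without it, and only the stimulated library without shRNA reached 5 CPM.

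Of 10 members of sugar and polyol families, 6 fell and none rose with Pam3Cys4, with medians of -0.69 with shRNA and -0.56 without on the log2 scale. The rule leaves out some glucose transporters, so the group does not stand for sugar transport as a whole. Slc37a2, an exchanger of glucose 6-phosphate and phosphate in the endoplasmic reticulum that is abundant in macrophages, had 113 scaled CPM after Pam3Cys4 against 256 unstimulated with shRNA, and 22.9 against 98.3 without shRNA. It was lower after Pam3Cys4 by 2.26-fold (2.19 to 2.32) with shRNA and 4.28-fold (4.02 to 4.57) without it (log2 difference -1.63 ± 0.25 SE, edgeR adjusted p = 0.017). With shRNA it was higher by 4.94-fold (4.63 to 5.26) after Pam3Cys4 and 2.60-fold (2.52 to 2.68) unstimulated (log2 difference 1.84 ± 0.25 SE, edgeR adjusted p = 0.011), so that the stimulated library with shRNA was close to the unstimulated one without it. Slc37a1, an exchanger of the same kind, had 21.3 scaled CPM with shRNA against 4.51 without it after Pam3Cys4, and 15.2 against 6.31 in unstimulated cells. It shared the increase with shRNA, 4.72-fold (4.09 to 5.47) and 2.42-fold (2.13 to 2.74), and its Pam3Cys4 ratio was under 2-fold in both states. Slc37a4, the transporter that feeds glucose 6-phosphatase, had 21.6 scaled CPM with shRNA against 23.1 without it after Pam3Cys4, and 21.4 against 24.6 in unstimulated cells, within 0.32 on the log2 scale in every pair.

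Slc5a3, which takes up myo-inositol with sodium, had 14.4 scaled CPM after Pam3Cys4 against 36.6 unstimulated with shRNA, and 13.5 against 38.8 without shRNA. The decrease after Pam3Cys4 was 2.54-fold (2.34 to 2.75) with shRNA and 2.87-fold (2.63 to 3.13) without it (log2 difference -1.43 ± 0.14 SE, edgeR adjusted p = 0.0071), and the levels in the 2 shRNA states were close. Slc2a8, a glucose transporter of intracellular membranes, had 6.56 scaled CPM after Pam3Cys4 against 14.7 unstimulated with shRNA, and 7.19 against 17.4 without shRNA, lower by 2.24-fold (1.98 to 2.53) and 2.42-fold (2.14 to 2.74) (log2 difference -1.22 ± 0.16 SE, edgeR adjusted p = 0.012). Slc2a9, a urate transporter, had 14.7 scaled CPM after Pam3Cys4 against 21.8 unstimulated with shRNA, and 10.9 against 16.3 without shRNA, and also fell (log2 difference -0.58 ± 0.14 SE, edgeR adjusted p = 0.047). Slc5a6, which belongs to this family but carries biotin and pantothenate, fell (log2 difference -1.01 ± 0.14 SE, edgeR adjusted p = 0.015), as did Slc45a4 (log2 difference -0.67 ± 0.14 SE, edgeR adjusted p = 0.032). Slc50a1, the single mouse sugar transporter of the SWEET family, had 16.3 scaled CPM after Pam3Cys4 against 16.8 unstimulated with shRNA, and 18.1 against 22.3 without shRNA and passed neither test.

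Vitamin transporters went in different directions. Slc19a2, the thiamine transporter, had 15.6 scaled CPM after Pam3Cys4 against 34.2 unstimulated with shRNA, and 24.7 against 53.6 without shRNA. It was lower after Pam3Cys4 by 2.20-fold (2.03 to 2.38) with shRNA and 2.17-fold (2.03 to 2.32) without it (log2 difference -1.13 ± 0.13 SE, edgeR adjusted p = 0.01), and fell with shRNA (log2 difference -0.65 ± 0.12 SE, edgeR adjusted p = 0.027), under 2-fold in each state. Slc46a1, the proton-coupled folate transporter, had 21 scaled CPM with shRNA against 7.997 without it after Pam3Cys4, and 29.2 against 12.8 in unstimulated cells, higher with shRNA by 2.62-fold (2.34 to 2.94) and 2.28-fold (2.09 to 2.49) (log2 difference 1.29 ± 0.15 SE, edgeR adjusted p = 0.0065). Slc19a1, the reduced folate carrier, had 173 scaled CPM with shRNA against 239 without it after Pam3Cys4, and 239.5 against 249 in unstimulated cells and passed neither test. Slc23a2, which takes up ascorbate, rose with Pam3Cys4 (log2 difference 0.81 ± 0.14 SE, edgeR adjusted p = 0.022).

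Monocarboxylate and dicarboxylate families held 5 members. Slc13a3, a sodium-coupled importer of succinate and other dicarboxylates, had 4.94 and 11.6 scaled CPM with shRNA (Pam3Cys4, unstimulated), against 13.5 and 19.9 without shRNA. It fell with shRNA (log2 difference -1.11 ± 0.22 SE, edgeR adjusted p = 0.029) and with Pam3Cys4 (log2 difference -0.89 ± 0.22 SE, edgeR adjusted p = 0.047), and its lowest library was the stimulated one with shRNA. Its paralog Slc13a2 had 241 and 400 counts with shRNA (Pam3Cys4, unstimulated), against 58 and 60 without it, 5.22-fold (3.97 to 6.96) higher with shRNA in unstimulated cells. Slc16a6 was lower with shRNA after Pam3Cys4 by 2.09-fold (1.99 to 2.20) (log2 difference -0.88 ± 0.15 SE, edgeR adjusted p = 0.021). Slc16a10, which carries aromatic amino acids, had 166 scaled CPM with shRNA against 93.7 without it after Pam3Cys4, and 93.7 against 89.9 in unstimulated cells and passed neither test.

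Exchangers of protons, bicarbonate, chloride and sulfate, 13 in number, set cytosolic, endosomal and Golgi pH. With Pam3Cys4 1 rose and 6 fell, and with shRNA 4 rose and 4 fell. Slc4a7, a sodium-bicarbonate cotransporter that macrophages use in phagosome acidification, had 166 scaled CPM after Pam3Cys4 against 52.1 unstimulated with shRNA, and 249 against 67.9 without shRNA. It was higher after Pam3Cys4 by 3.18-fold (3.06 to 3.31) with shRNA and 3.67-fold (3.54 to 3.81) without it (log2 difference 1.77 ± 0.12 SE, edgeR adjusted p = 0.0043), without overlap of stimulated and unstimulated libraries. Slc26a11, a sulfate and anion transporter, had 4.68 scaled CPM after Pam3Cys4 against 34.2 unstimulated with shRNA, and 2.69 against 9.07 without shRNA. The decrease was 7.31-fold (6.42 to 8.34) with shRNA and 3.37-fold (2.78 to 4.11) without it (log2 difference -2.34 ± 0.31 SE, edgeR adjusted p = 0.013), and in unstimulated cells the gene was 3.77-fold (3.41 to 4.17) higher with shRNA. Slc26a11 reached 5 CPM only in the unstimulated libraries, so its selection favoured the decrease and the p-value is no independent support for it. Slc9a7, a sodium-proton exchanger of the trans-Golgi network, had 8.78 scaled CPM after Pam3Cys4 against 22.4 unstimulated with shRNA, and 4.26 against 14.1 without shRNA. It was lower after Pam3Cys4 by 2.56-fold (2.30 to 2.84) and 3.32-fold (2.85 to 3.88) (log2 difference -1.54 ± 0.18 SE, edgeR adjusted p = 0.01), and 2.06-fold (1.75 to 2.43) higher with shRNA after Pam3Cys4, which library totals put at 1.962.

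Slc9a9, the endosomal sodium-proton exchanger, had 2.37 scaled CPM with shRNA against 8.71 without it after Pam3Cys4, and 6.30 against 16.4 in unstimulated cells. With shRNA it was lower by 3.68-fold (3.02 to 4.51) after Pam3Cys4 and 2.60-fold (2.31 to 2.93) unstimulated (log2 difference -1.61 ± 0.20 SE, edgeR adjusted p = 0.0086). Slc9a4, a plasma membrane exchanger known from the stomach, had 8 and 3 counts with shRNA (Pam3Cys4, unstimulated), against 744 and 416 without it, ratios of 101-fold (51 to 235) and 177-fold (60.2 to 863) toward lower (log2 difference -6.91 ± 0.30 SE, edgeR adjusted p = 0.00058), so that it was close to absent from both libraries with shRNA. Slc4a8, a sodium-driven chloride-bicarbonate exchanger, had 41 and 84 counts with shRNA (Pam3Cys4, unstimulated), against 278 and 506 without it, lower with shRNA by 7.37-fold (5.29 to 10.5) and 7.70-fold (6.10 to 9.82) (log2 difference -2.91 ± 0.20 SE, edgeR adjusted p = 0.0015). Slc9a4 and Slc4a8 reached 5 CPM only without shRNA. Their selection favoured a difference, so their p-values are no independent support for it.

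Cation-chloride cotransporters regulate cell volume and chloride. Slc12a4, the potassium-chloride cotransporter KCC1, had 229.7 scaled CPM after Pam3Cys4 against 121 unstimulated with shRNA, and 247 against 99 without shRNA. It rose with Pam3Cys4 (log2 difference 1.12 ± 0.14 SE, edgeR adjusted p = 0.012), and passed 2-fold without shRNA, at 2.49-fold (2.41 to 2.57). Slc12a2, the sodium-potassium-chloride importer NKCC1, fell with Pam3Cys4 (log2 difference -0.65 ± 0.15 SE, edgeR adjusted p = 0.044). With shRNA Slc12a2 also fell (log2 difference -0.91 ± 0.15 SE, edgeR adjusted p = 0.02), and Slc12a7 and Slc12a9 rose. Slc12a9, for which no ion is established beyond doubt, had 101 scaled CPM with shRNA against 30.05 without it after Pam3Cys4, and 76.3 against 39.7 in unstimulated cells, 3.35-fold (3.16 to 3.55) higher with shRNA after Pam3Cys4.

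Among calcium exchangers Slc8a1, the sodium-calcium exchanger of the plasma membrane, had 14 scaled CPM after Pam3Cys4 against 15.5 unstimulated with shRNA, and 5.94 against 16.5 without shRNA. Without shRNA it was 2.78-fold (2.44 to 3.19) lower after Pam3Cys4, and with shRNA 1.10-fold (1.003 to 1.21) lower. After Pam3Cys4 it was thus 2.37-fold (2.07 to 2.71) higher with shRNA, and the stimulated library without shRNA stood below the other 3. Slc8b1, its mitochondrial counterpart, rose with Pam3Cys4 (log2 difference 1.07 ± 0.17 SE, edgeR adjusted p = 0.02) and with shRNA (log2 difference 0.89 ± 0.17 SE, edgeR adjusted p = 0.028). Slc24a3, a potassium-dependent sodium-calcium exchanger, had 0 and 0 counts with shRNA (Pam3Cys4, unstimulated), against 197 and 489 without it. Against a floor of 3 counts per library it was, in unstimulated cells, at least 208-fold lower with shRNA, and without shRNA it was 2.41-fold (2.03 to 2.85) lower after Pam3Cys4.

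The 3 organic ion transporters differed in how far their libraries lay apart. Slco2b1, an organic anion transporter, had 7 and 109 counts with shRNA (Pam3Cys4, unstimulated), against 118 and 2725 without it. Pam3Cys4 ratios were 12.8-fold (6.02 to 32.7) lower with shRNA, under 5 scaled CPM in both libraries, and 22.4-fold (18.6 to 27.1) lower without it. In unstimulated cells it was 32-fold (26.4 to 39.1) lower with shRNA, so the unstimulated library without shRNA held nearly all its reads. Slco4a1, a thyroid hormone transporter, rose with shRNA (log2 difference 1.06 ± 0.19 SE, edgeR adjusted p = 0.022), and Slc22a5, the carnitine importer, had 5.74 scaled CPM after Pam3Cys4 against 7.05 unstimulated with shRNA, and 5.86 against 7.29 without shRNA, within 0.32 on the log2 scale in every pair.

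Mitochondrial carriers exchange nucleotides, anions, amino acids and cofactors across the inner membrane. Of 32 tested, 3 rose and 2 fell with Pam3Cys4, and 2 rose and 4 fell with shRNA. Slc25a37, the iron importer mitoferrin-1, had 153 scaled CPM after Pam3Cys4 against 48.5 unstimulated with shRNA, and 140.3 against 50.2 without shRNA. It was higher after Pam3Cys4 by 3.15-fold (3.02 to 3.28) with shRNA and 2.79-fold (2.67 to 2.92) without it (log2 difference 1.57 ± 0.12 SE, edgeR adjusted p = 0.0053), and nearly the same in both shRNA states. Its paralog Slc25a28, mitoferrin-2, had 67.1 scaled CPM after Pam3Cys4 against 65.1 unstimulated with shRNA, and 67.5 against 68.4 without shRNA, and differed by at most 0.07 on the log2 scale in every pair. Slc25a25, an ATP-magnesium and phosphate carrier, had 116 scaled CPM after Pam3Cys4 against 50.6 unstimulated with shRNA, and 155 against 88 without shRNA, and rose (log2 difference 1.01 ± 0.14 SE, edgeR adjusted p = 0.015). Slc25a10, the dicarboxylate carrier that exchanges malate and succinate for phosphate, had 76.5 scaled CPM after Pam3Cys4 against 113 unstimulated with shRNA, and 57.2 against 116 without shRNA, and fell (log2 difference -0.79 ± 0.16 SE, edgeR adjusted p = 0.03).

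Of the carriers lower with shRNA, Slc25a29, which carries basic amino acids, had 1.93 scaled CPM with shRNA against 9.58 without it after Pam3Cys4, and 1.64 against 5.60 in unstimulated cells, lower by 4.96-fold (4.01 to 6.18) and 3.42-fold (2.74 to 4.31) (log2 difference -2.04 ± 0.23 SE, edgeR adjusted p = 0.0059). Slc25a29 reached 5 CPM only without shRNA, so its selection favoured that difference and the p-value is no independent support for it. Slc25a33, a pyrimidine nucleotide carrier, had 20.2 scaled CPM with shRNA against 60.4 without it after Pam3Cys4, and 14.1 against 33.5 in unstimulated cells, lower by 2.99-fold (2.79 to 3.21) and 2.38-fold (2.20 to 2.58) (log2 difference -1.42 ± 0.15 SE, edgeR adjusted p = 0.0049). In both the libraries with shRNA lay below those without it. Slc25a22, a glutamate carrier, had 507 scaled CPM with shRNA against 177 without it after Pam3Cys4, and 315 against 206 in unstimulated cells, and rose with shRNA (log2 difference 1.07 ± 0.24 SE, edgeR adjusted p = 0.04), as did Slc25a23, whose 2.03-fold after Pam3Cys4 was 1.93 under library totals. The citrate carrier Slc25a1 had 211 scaled CPM after Pam3Cys4 against 227 unstimulated with shRNA, and 166 against 181 without shRNA, and the oxoglutarate carrier Slc25a11 had 151 scaled CPM after Pam3Cys4 against 185 unstimulated with shRNA, and 168 against 182 without shRNA. Neither passed a test.

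The nucleotide sugar family, which supplies the Golgi and endoplasmic reticulum, had none of its 19 members called with Pam3Cys4. Over all genes measured, 7.07% were called higher and 6.51% lower without shRNA, and 6.3% and 3.53% with it. In a group of 19 the absence of calls is therefore no result about the family. With shRNA Slc35f6 was called higher after Pam3Cys4, at 2.05-fold, or 1.95 under library totals. In the additive test Slc35f6 rose with shRNA, and Slc35g1 (log2 difference -0.82 ± 0.13 SE, edgeR adjusted p = 0.018) and Slc35c1 (log2 difference -0.60 ± 0.12 SE, edgeR adjusted p = 0.03) fell. Slc35b1, which brings ATP into the endoplasmic reticulum, had 43.9 scaled CPM after Pam3Cys4 against 30.02 unstimulated with shRNA, and 47.3 against 28.9 without shRNA, and rose (log2 difference 0.63 ± 0.13 SE, edgeR adjusted p = 0.032). Slc35b2, which carries the sulfate donor PAPS into the Golgi, fell (log2 difference -0.72 ± 0.12 SE, edgeR adjusted p = 0.022). Of 7 choline and lipid transporters none passed the test for Pam3Cys4, and Slc44a1, a choline transporter, had 87.2 scaled CPM with shRNA against 38.3 without it after Pam3Cys4, and 46.5 against 33 in unstimulated cells, and rose with shRNA (log2 difference 0.84 ± 0.20 SE, edgeR adjusted p = 0.047).

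For 159 members with at least 10 counts in every library the Pam3Cys4 ratio with shRNA was set against that without it. Just 1 member had a ratio at least 2-fold larger with shRNA and 3 had one at least 2-fold smaller, or 0.629% and 1.89%, where 1.94% and 1.64% of 9857 genes did. The larger one was Slc8a1, at 1.34 on the log2 scale (1.11 to 1.57), where the decrease seen without shRNA was small with it. The smaller ones were Slc15a3 at -1.60 (-1.64 to -1.56), Slc20a1 at -1.19 (-1.24 to -1.13) and Slc26a11 at -1.12 (-1.45 to -0.78). For Slc15a3 the unstimulated level with shRNA was already higher, for Slc20a1 the stimulated level with shRNA was lower, and for Slc26a11 the decrease was deeper with shRNA. Each ratio compares single libraries, so the spread between cultures is not in these intervals.

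At the other end, 105 of 165 members were called in no pair, and 25 of the 153 measured in all 4 pairs differed by at most 0.32 on the log2 scale in each of them, a limit chosen after the data were seen. They included 12 mitochondrial carriers, among them the ADP/ATP carriers Slc25a4 and Slc25a5 and the phosphate carrier Slc25a3. The same counts over all genes are not given, so these are not read as a trait of solute carriers or of mitochondrial carriers. Slc25a4 had 295 and 305 scaled CPM with shRNA (Pam3Cys4, unstimulated), against 292 and 318 without shRNA. Slc25a3 had 503 and 492 scaled CPM with shRNA (Pam3Cys4, unstimulated), against 561 and 464 without shRNA, and Slc35a4 had 196 and 193 scaled CPM with shRNA (Pam3Cys4, unstimulated), against 194 and 207 without shRNA. These levels moved less between groups than any of the members described above as called. Slc25a39, which brings glutathione into mitochondria, had 341 and 360.4 scaled CPM with shRNA (Pam3Cys4, unstimulated), against 243 and 277 without shRNA and passed neither test.

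Genes that work with solute carriers were read from lists chosen with earlier results known, and each list is described by its counts, beside 11.9% of all genes that rose and 10.9% that fell with Pam3Cys4 and 12.3% and 8.66% with shRNA. Nothing particular to a list is read from them. Of 16 partners and lysosomal relatives, 2 rose and 4 fell with Pam3Cys4 and as many with shRNA. Irf5, the transcription factor downstream of Slc15a4, had 255 scaled CPM with shRNA against 59.7 without it after Pam3Cys4, a 4.28-fold difference (4.11 to 4.45), and 145 against 127 unstimulated. It was higher after Pam3Cys4 by 1.77-fold with shRNA and lower by 2.13-fold without it. Of 25 genes of the ATF4 amino acid response, 9 rose and none fell with Pam3Cys4, with a median log2 ratio of 0.35 with shRNA (24 measured) and 0.58 without (25 measured), and 1 rose and 10 fell with shRNA. Of 28 genes of amino acid sensing by mTORC1, 2 rose and 4 fell with Pam3Cys4 and 2 rose and 5 fell with shRNA. Of 58 other transporters, ABC pumps and Mfsd carriers among them, 5 rose and 13 fell with Pam3Cys4, and 7 rose and 6 fell with shRNA.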

How the data were processed

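mRNA was sequenced in 4 libraries, 1 per group. The authors deposited raw counts per Ensembl gene. Per the submitters' processing notes, CASAVA 1.8, TopHat, HTSeq and the mouse build NCBIM37 were used. Not given in the sources used here were the strand setting, the gene annotation and the TopHat and HTSeq versions. Whether reads of overlapping antisense genes were told apart is therefore not known. Rows that name no gene, 32.5 to 34.4% of each library's total, were left out of library sizes. They include reads that did not align uniquely, 27.0 to 29.9%, so genes with close paralogs may be undercounted. Within an shRNA state, the unstimulated and the stimulated library are not known to come from separate animals or cultures. Between shRNA states Y-linked reads differed. Ddx3y had 921 counts with shRNA against 3 without it unstimulated, and 1116 against 4 after Pam3Cys4.

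Counts were scaled by TMM factors of 0.924 to 1.10 (edgeR 4.0.16, R 4.3.3). Ratios between libraries carry exact conditional binomial 95% intervals, libraries at 0 were set to a floor of 3 counts, and intervals and floors cover counting error only. Ratios were read where the higher library held at least 5 scaled CPM, and a ratio of Pam3Cys4 ratios where every library held at least 10 counts and the highest at least 5 scaled CPM, with an interval from the counts. The additive quasi-likelihood test used shRNA state and stimulation as terms over 9559 genes with at least 5 scaled CPM in 2 or more libraries, with Benjamini-Hochberg adjustment. It had 1 residual degree of freedom and a prior of 3.76, so its p-values rest on spread shared across genes and on the absence of an interaction, and do not cover spread between cultures. The fits were tested on simulated data. Exon lengths came from GENCODE vM21 and promoters from RefSeq on GRCm38.p6. Figures were drawn with matplotlib 3.10.9.

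Members, roles and lists were chosen with earlier results of these data known. Members named with every value were the 8 highest and 8 lowest in each pair by the interval bound nearest to 1, the 6 extremes of the ratio of ratios in each direction, the 5 smallest additive p-values per direction and factor, and 2 lists of immune, metabolic and reference carriers. Others named, such as Slc38a7, Slc25a33, Slc35f6, Slc8b1 and members given with an additive result only, were chosen after their values were seen. Also chosen after values were seen were the low-count filter on scaled rather than raw CPM, the search of only the 5′-most promoter start, which promoters are printed, the limit for members that moved least and the Y-linked genes. Alternatives were library totals, DESeq2 1.42.0 size factors and Wald test, other filters and a 1.5-fold threshold. A few genes that the rule names are not reported here.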

Additional observations from a re-analysis of the deposited data

How the results depend on the processing

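Of 72 recomputed member counts 61 were within 1.5 times the reported ones, and none of 572 recomputed single-member ratios reversed. With a 1.5-fold threshold, Pam3Cys4 gave 20 members higher and 22 lower with shRNA and 25 higher and 29 lower without it, and shRNA gave 30 higher and 23 lower in unstimulated cells. With at least 20 scaled CPM in the higher library, the counts were 7 higher and 7 lower for Pam3Cys4 with shRNA, 9 and 9 without it, and 11 and 6 for shRNA in unstimulated cells, against 9 and 11, 11 and 15, and 15 and 12 as reported. Under library totals 2 members had a larger Pam3Cys4 ratio with shRNA against 1, and 43 fell with Pam3Cys4 in the additive test against 28. Shares of all genes called are not given at these other settings, so the splits stand without a background. Library totals moved the median log2 Pam3Cys4 ratio of all genes to -0.115 with shRNA and -0.180 without it, which bears on these splits by construction. A low-count filter on unscaled CPM, added after the data were seen, left every call count as reported. Leaving out the members at 5 CPM in 1 library was added after the data were seen too. Of 112 member calls over the 4 pairs, 7 were lost under library totals or DESeq2 size factors (Slc20a1, Slc25a23, Slc31a1, Slc31a2, Slc35f6, Slc39a4 and Slc9a7), with ratios of 2.02 to 2.17 as reported and 1.84 to 1.999 where lost. Library totals also added lower calls, which that count leaves out. For Pam3Cys4, 18 members were then lower without shRNA and 14 with it, against 15 and 11 as reported. For shRNA in unstimulated cells 13 were lower, against 12. Leaving out a replicate was not possible with 1 library per group. No paired analysis was possible because each group has 1 library and the labels give no replicate numbers. The depth limits members near 5 CPM, and the absence of replicates limits every ratio.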
